A study of Mus musculus with 3 samples.

Results

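The cells described here are mouse dendritic cells with RNA of the lectin gene Cd209a and of at least 1 further cDC2 surface gene, within cultures grown with the growth factor FLT3L. Of 28903 cell barcodes past the quality limits in 3 libraries, 1471 were members. They numbered 461 of 9649 at 50 µM glutamine, 400 of 8887 with DON and 610 of 10367 in control. All cells came from wild-type C57BL/6 mice and were differentiated in 1 of 3 media. The first held 50 µM glutamine. The second held 2 mM glutamine and 1 µM DON (6-diazo-5-oxo-L-norleucine), an antagonist of glutamine-using enzymes. The third, the control, held 2 mM glutamine alone. Each medium gave 1 library of 3′ droplet single-cell RNA sequencing, so no difference below could be tested, and all intervals are 95% intervals that cover counting error only. The cultures are an in vitro model of dendritic cells, and how many mice or wells each library holds is not given in the sources used here.

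A barcode was kept when it had 1000 or more UMIs (unique molecular identifiers, 1 per captured RNA molecule) and 500 or more genes, with no more than 10% of its UMIs from mitochondrial genes. A member had at least 1 UMI of Cd209a and at least 1 UMI of Clec4b1, Clec4a2, Clec10a or Sirpa. It had no UMI of Xcr1 or Clec9a, fewer than 3 of Batf3, Naaa, Ifi205, Rab7b and Cadm1, at most 1 UMI of Siglech, and none of Ccr7 or Fscn1. These limits remove barcodes with marks of cDC1, of plasmacytoid cells (pDC) and of mature dendritic cells. The members were therefore chosen on measured RNA, and the levels of these 15 genes below are a description of that choice.

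Conventional dendritic cells of type 2 (cDC2) take up antigen and present it on MHC class II to CD4 T cells. Cd209a is the mouse relative of human DC-SIGN, a C-type lectin that binds sugars on microbes, and Clec4a2, Clec4b1 and Clec10a are further lectin genes of the same cells. Sirpa encodes a receptor for the "do not eat me" signal CD47. Glutamine supplies nitrogen for nucleotides, asparagine and hexosamines and carbon for the citric acid cycle. When amino acids run short, the factor ATF4 switches on genes for amino acid synthesis and transport. The factor HIF, stabilised when oxygen is low or prolyl hydroxylases are blocked, switches on genes of glycolysis.

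The promoters of 8 genes are printed. They are the 4 with the lowest ratio over control at 50 µM glutamine among glycolysis genes and HIF targets, and the 4 with the lowest among MHC class II genes, since the results turn on these lists. Sequences are from RefSeq (GRCm38.p6), run 5′ to 3′ on the gene's strand and span 250 bases before to 50 bases after the annotated start. Capitals in the first 4 mark the letters ACGTG or, on the other strand, CACGT, the centre of the HIF response element, which also lies within the E box of other factors. The Ankrd37 window is chr8:45999801-46000100 (minus strand), that of Aldoc chr11:78322823-78323122 (plus), that of Mif chr10:75860228-75860527 (minus) and that of Slc2a1 chr4:119108495-119108794 (plus).
Ankrd37: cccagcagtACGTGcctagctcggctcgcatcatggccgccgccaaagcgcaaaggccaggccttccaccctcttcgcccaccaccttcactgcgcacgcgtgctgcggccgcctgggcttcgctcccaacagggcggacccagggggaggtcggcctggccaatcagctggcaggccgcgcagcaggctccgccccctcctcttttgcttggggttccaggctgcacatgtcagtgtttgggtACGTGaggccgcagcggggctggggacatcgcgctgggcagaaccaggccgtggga
Aldoc: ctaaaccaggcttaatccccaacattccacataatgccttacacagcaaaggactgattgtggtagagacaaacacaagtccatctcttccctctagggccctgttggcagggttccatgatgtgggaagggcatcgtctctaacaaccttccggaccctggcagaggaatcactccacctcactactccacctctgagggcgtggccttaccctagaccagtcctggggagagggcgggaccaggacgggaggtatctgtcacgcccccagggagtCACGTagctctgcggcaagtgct
Mif: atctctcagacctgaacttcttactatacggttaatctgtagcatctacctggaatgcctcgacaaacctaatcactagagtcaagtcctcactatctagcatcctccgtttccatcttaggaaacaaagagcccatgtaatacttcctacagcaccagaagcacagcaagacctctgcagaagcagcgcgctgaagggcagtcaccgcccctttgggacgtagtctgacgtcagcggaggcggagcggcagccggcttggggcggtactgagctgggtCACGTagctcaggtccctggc
Slc2a1: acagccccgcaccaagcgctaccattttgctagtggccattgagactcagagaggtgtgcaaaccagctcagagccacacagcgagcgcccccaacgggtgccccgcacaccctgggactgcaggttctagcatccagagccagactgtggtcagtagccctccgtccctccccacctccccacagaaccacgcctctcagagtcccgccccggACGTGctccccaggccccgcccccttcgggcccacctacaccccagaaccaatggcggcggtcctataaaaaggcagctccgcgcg
In the next 4 promoters capitals mark CCAAT or its complement ATTGG, the Y box of MHC class II promoters. The windows are chr17:34144999-34145298 (plus) for H2-DMb2, chr17:34238655-34238954 (plus) for H2-Ob, chr8:70766614-70766913 (minus) for Ifi30 and chr17:34305617-34305916 (plus) for H2-Eb1.
H2-DMb2: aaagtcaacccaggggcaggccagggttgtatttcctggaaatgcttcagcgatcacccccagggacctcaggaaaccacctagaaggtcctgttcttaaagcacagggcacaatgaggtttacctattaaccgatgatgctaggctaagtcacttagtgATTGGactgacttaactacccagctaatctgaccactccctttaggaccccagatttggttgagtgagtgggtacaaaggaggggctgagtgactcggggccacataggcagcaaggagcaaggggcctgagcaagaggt
H2-Ob: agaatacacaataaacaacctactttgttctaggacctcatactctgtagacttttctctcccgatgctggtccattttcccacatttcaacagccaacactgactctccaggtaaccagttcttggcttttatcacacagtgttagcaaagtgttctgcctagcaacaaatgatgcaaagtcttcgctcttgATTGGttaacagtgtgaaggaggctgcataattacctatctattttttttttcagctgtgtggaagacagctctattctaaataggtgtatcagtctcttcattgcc
Ifi30: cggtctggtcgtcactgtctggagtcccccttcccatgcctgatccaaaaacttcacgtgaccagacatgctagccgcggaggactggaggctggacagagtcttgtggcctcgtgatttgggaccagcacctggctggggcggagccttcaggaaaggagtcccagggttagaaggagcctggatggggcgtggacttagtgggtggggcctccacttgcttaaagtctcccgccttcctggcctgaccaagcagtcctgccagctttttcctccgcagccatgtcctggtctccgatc
H2-Eb1: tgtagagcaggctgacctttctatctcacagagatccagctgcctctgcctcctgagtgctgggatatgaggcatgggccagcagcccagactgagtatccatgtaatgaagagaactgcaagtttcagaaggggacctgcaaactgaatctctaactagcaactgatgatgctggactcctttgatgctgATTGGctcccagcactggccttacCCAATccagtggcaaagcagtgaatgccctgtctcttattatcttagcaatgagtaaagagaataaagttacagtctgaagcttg
Ankrd37 held 2 ACGTG matches, H2-Eb1 held 2 CCAAT matches, Ifi30 held 0 CCAAT matches, and the other 5 promoters held 1 match each of the letters marked in them. ACGTG or its complement was in a promoter of 21.8% of 27025 genes in the table, and in 27 of the 39 genes of the glycolysis and HIF lists that have an entry. CCAAT or its complement was in a promoter of 41.1% of all genes and in 8 of 10 MHC class II genes with an entry. Aldoc has 2 entries, of which 1 is shown. A match describes the letters in the window and shows no binding.

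The libraries held 92002827 UMIs in 9817 barcodes at 50 µM, 87611658 in 8962 with DON and 89340379 in 10497 in control. Members had a median of 6987 UMIs at 50 µM, 8127 with DON and 7101.5 in control, and a median of 3.55%, 3.42% and 3.01% mitochondrial UMIs in the same order. Between 20 and 31 barcode sequences were shared by each pair of libraries, and 1 shared barcode was a member in both the 50 µM and the DON library. Doublets were not removed for the main values. A doublet caller marked 19 members at 50 µM, 5 with DON and 20 in control.

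The shares of these cells in the 3 media were compared first. Members made up 4.78% of barcodes at 50 µM (4.36 to 5.22%), 4.50% with DON (4.08 to 4.95%) and 5.88% in control (5.44 to 6.35%). Both treated shares were lower than control by more than counting error. Since the libraries differ in depth, the rule was also applied after each barcode was thinned to 2000 UMIs. The shares were then 2.12% at 50 µM (1.84 to 2.44%), 1.61% with DON (1.36 to 1.90%) and 2.36% in control (2.07 to 2.67%), so that the 50 µM and control intervals overlapped and the DON share stayed below control. Thinning left out 362 barcodes at 50 µM, 197 with DON and 306 in control.

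**Figure D1:**
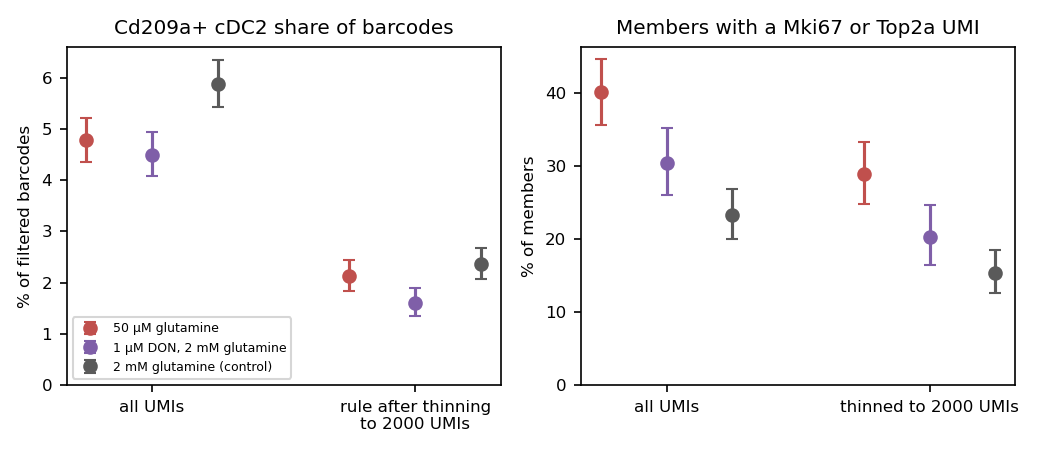
Left, members as a percentage of barcodes past the filter, with all UMIs and with the rule applied after thinning to 2000 UMIs; right, the percentage of members with a UMI of Mki67 or Top2a, with all UMIs and thinned. Points are single libraries and bars 95% exact binomial intervals; the member share is 4.78% at 50 µM, 4.50% with DON and 5.88% in control, and the Mki67 or Top2a share is 40.1%, 30.5% and 23.3% in the same order.

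A set of cells with the same limits, Cd209a at 0 and at least 2 of the 4 other genes served as comparison. Those with over 0.5% of their UMIs from neutrophil and progenitor granule genes were left out of it, which left 915 cells at 50 µM, 696 with DON and 775 in control. Members were 33.5% of members and these Cd209a-negative cells together at 50 µM (31.0 to 36.1%), 36.5% with DON (33.6 to 39.4%) and 44.0% in control (41.4 to 46.7%).

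Much of the membership rests on a single molecule. Of the members, 206 at 50 µM, 187 with DON and 221 in control had exactly 1 Cd209a UMI (44.7%, 46.8% and 36.2%), and 180, 144 and 267 had 3 or more (39.0%, 36.0% and 43.8%). The highest member held 17, 21 and 16 Cd209a UMIs in that order of libraries. Just outside the rule lay 75 barcodes at 50 µM, 66 with DON and 90 in control that had a Cd209a UMI and none of the 4 other genes. A further 96, 56 and 141 barcodes held Cd209a together with Xcr1 or Clec9a. Free RNA can put a UMI into any droplet. Barcodes with at least 3 Siglech UMIs were taken as pDC. Of these, 2.13% at 50 µM, 1.46% with DON and 2.51% in control had a Cd209a UMI. Of all barcodes, 4.55%, 3.45% and 5.41% did, each thinned to 2000 UMIs. Whether the Cd209a UMIs of Siglech barcodes are free RNA or RNA of those cells was not tested. Before thinning, the Siglech barcodes had a median of 6883.5, 7302 and 5822.5 UMIs.

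The 5 genes of the rule differed among the libraries in their own ways. Summed over members and scaled to the member total as CPM (counts per 1000000 member UMIs), Cd209a was at 335 CPM at 50 µM (317 to 353), 314 with DON (296 to 333) and 375 in control (358 to 392). Clec4b1 was lowest at 50 µM with 74.8 CPM (66.5 to 83.9), then 89.0 with DON (79.6 to 99.3) and 127 in control (118 to 138). Over all members Clec4a2 had 129, 191 and 185 CPM and was low at 50 µM alone. Clec10a, which binds terminal galactose and N-acetylgalactosamine, had 128, 76.1 and 108 CPM and was lowest with DON. Sirpa had the opposite order to Clec4b1, at 157 CPM at 50 µM (144 to 169), 124 with DON (113 to 136) and 104 in control (95.05 to 113). Each of these 5 genes was used to choose the cells. The order of some depended on which members were counted. In members without a UMI of the proliferation genes Mki67 and Top2a, Cd209a had 468 CPM at 50 µM, 356 with DON and 422 in control. There Clec4a2 had 185, 232 and 199 CPM and Clec4b1 101, 103 and 142 CPM. Clec10a had 166, 87.0 and 117 CPM and Sirpa 206, 130 and 115 CPM in those members.

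The label was checked against genes that the rule did not use. Members had more RNA of the cDC2 factor Irf4 than all other barcodes outside the rule and its Cd209a-negative set, at 40.9 CPM against 11.1 CPM at 50 µM, 46.7 against 13.1 with DON and 53.7 against 14.0 in control. The integrin Itgam (CD11b) had 170 against 43.5 CPM, 117 against 34.7 CPM and 134 against 34.6 CPM in that order. Irf8, high in cDC1 and pDC, went the other way, at 259 CPM against 1194 at 50 µM, 189 against 1475 with DON and 148 against 1478 in control. Other genes of the cDC2 list were not all higher in members. Of 20 measured at 50 µM, 10 were at least 1.5-fold higher in members than in all other barcodes and 3 lower, with DON 9 of 20 higher and 3 lower, and in control 10 of 19 higher and 3 lower. Of all genes, 6.91%, 5.53% and 4.89% were higher and 8.92%, 9.68% and 8.44% lower in the same order of libraries. Clec12a and Cd7 were among the lower ones in each library, Itgax (CD11c) in both treated libraries and Relb in control. Clec12a had 62.8 CPM in members against 155 at 50 µM, 32.1 against 130 with DON and 35.1 against 118 in control, and Zeb2 had 236 against 256, 188 against 231 and 147 against 198 CPM. No test was made because the cells were split on genes of the same barcodes.

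Markers of other cell types were present in the members in unequal amounts. The 20 monocyte and macrophage markers summed to 3493 CPM at 50 µM, 2388 with DON and 1580 in control, against 1195, 1180 and 1231 CPM in all other barcodes. At least 2 of 6 monocyte genes were detected in 15.6% of members at 50 µM, 16.5% with DON and 13.6% in control. The 14 neutrophil markers summed to 2317, 965 and 1256 CPM, and Ly6g was at 0 in all 3. These sums rested on few cells, since 5 members held 78.0% of those UMIs at 50 µM, 85.9% with DON and 91.7% in control. The 14 progenitor markers summed to 374 CPM at 50 µM, 97.0 with DON and 93.2 in control. The 15 pDC markers summed to 827, 717 and 647 CPM, with Klk1 at 0 throughout, and the 15 cDC1 markers to 294, 315 and 398 CPM, with Gpr141b at 0 throughout. The 15 mature-cell markers stood at 206, 206 and 210 CPM. B cell markers and T and NK cell markers were at 58.3 CPM or less in each library. Their part in the ratios below was not tested.

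A larger share of treated members had a UMI of the proliferation genes Mki67 or Top2a. It was 40.1% at 50 µM (35.6 to 44.8%), 30.5% with DON (26.0 to 35.3%) and 23.3% in control (19.98 to 26.8%). Thinned to 2000 UMIs it was 29.0% at 50 µM (24.9 to 33.4%), 20.4% with DON (16.5 to 24.6%) and 15.4% in control (12.7 to 18.6%), so that the DON and control intervals overlapped. The Cd209a-negative cells had 43.6%, 36.1% and 27.1%, and all other barcodes 59.5%, 46.4% and 35.9%, so the order of the libraries was alike in all 3 sets. No set lacking both genes was defined here, so how much of these shares free RNA gives was not tested. Members with such a UMI were deeper, with a median of 10157 UMIs at 50 µM, 10891 with DON and 10234.5 in control, against 6244, 7562.5 and 6798 UMIs in the remaining members.

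The second question was how the RNA of the members differed at 50 µM glutamine. The glycolysis list and HIF targets such as Ankrd37 had lower RNA than in control, and so did most MHC class II genes. Most cell cycle genes, Lyz2, Tnfaip2, the asparagine synthesis gene Asns and the serine synthesis gene Phgdh had higher RNA. Each ratio is the log2 of the treated CPM divided by the control CPM, after 5 CPM was added to both. Of 5834 genes with at least 20 CPM in either library, 77 had a level in treated members 2-fold or more above control (1.32%) and 38 a level 2-fold or more below (0.651%). At 1.5-fold, 395 were higher (6.77%) and 134 lower (2.3%). The median ratio of all these genes was 0.13, and 0.02 after scaling by the median of ratios. With that scaling the 2-fold counts were 54 higher and 46 lower, and without members that held a Mki67 or Top2a UMI they were 33 and 30, so the excess of higher genes depended on both.

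With DON the members stood much nearer to control. Of 5552 genes, 4 lay 2-fold or more above control (0.072%) and 7 lay 2-fold or more below (0.126%), while 39 were 1.5-fold higher (0.702%) and 29 lower (0.522%). The median of all genes was 0.07, and 0.00 by the median of ratios. Both comparisons share the control library, so their values are given side by side and not as support for each other.

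**Figure D2:**
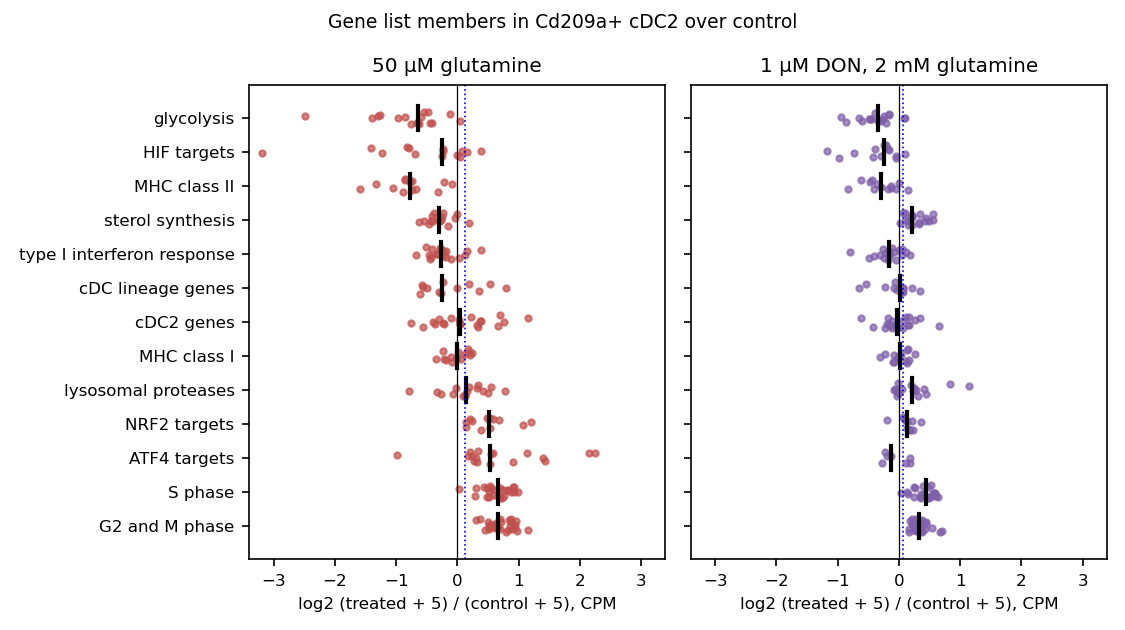
Log2 ratio over control of each measured gene of 13 lists in the members, at 50 µM glutamine (left) and with DON (right). Points are genes, black bars list medians and the dotted line the median of all genes (0.13 at 50 µM and 0.07 with DON); the medians of glycolysis and MHC class II lie to the left of 0 in both panels, and the median of sterol synthesis is -0.30 at 50 µM and 0.22 with DON.

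Ankrd37, a small ankyrin-repeat protein gene and a known HIF target (ENSMUSG00000050914, chromosome 8, 45996902 to 46005707 of GRCm38), had the lowest ratio in both treatments of the genes with at least 50 CPM, immunoglobulin genes left out. It was at 4.09 CPM at 50 µM (2.34 to 6.64), 31.9 with DON (26.3 to 38.2) and 77.7 in control (70.2 to 85.9), a log2 ratio of -3.19 at 50 µM and -1.17 with DON. It was detected in 15 of the 461, 80 of the 400 and 214 of the 610 members. The 3 intervals are apart, and DON lay between 50 µM and control. Aldoc, an aldolase of glycolysis (chromosome 11, 78322968 to 78327781), followed the same order with 9.96 CPM at 50 µM (7.08 to 13.6), 56.1 with DON (48.6 to 64.3) and 79.2 in control (71.5 to 87.4).

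Other glycolysis genes showed the same order in smaller steps. Slc2a1, the main glucose importer of proliferating cells, had 10.2 CPM at 50 µM (7.30 to 13.9), 15.7 with DON (11.9 to 20.3) and 34.9 in control (29.9 to 40.4). The lactate exporter Slc16a3 was at 10.7, 15.7 and 32.7 CPM. Pgk1, the first ATP-yielding enzyme of the pathway, had 146 CPM at 50 µM (134 to 159), 288 with DON (271 to 306) and 364 in control (347 to 381). Here the DON level was closer to control than to 50 µM, whereas for Slc2a1 and Slc16a3 it was closer to 50 µM. Of 17 measured glycolysis genes, 11 were at least 1.5-fold lower at 50 µM and 4 with DON, and 0 were higher in either. The list median was -0.64 at 50 µM and -0.33 with DON. The 4 with DON were Slc2a1, Slc16a3, Tpi1 (102, 110 and 177 CPM) and Pfkl (15.1, 19.0 and 31.3 CPM), the last 2 being triose-phosphate isomerase and a phosphofructokinase.

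Of 14 HIF targets outside glycolysis, 6 were at least 1.5-fold lower at 50 µM and 3 with DON, with medians of -0.25 and -0.24 and 0 higher in either. Mif, a cytokine that macrophages release, had 220 CPM at 50 µM (205 to 235), 438 with DON (416 to 460) and 589 in control (568 to 611). P4ha1, a collagen prolyl hydroxylase, was at 16.6, 20.6 and 45.5 CPM, and the mitophagy receptor Bnip3 at 21.5, 20.9 and 37.9 CPM. For both the treated libraries were alike within counting error and apart from control. Of the 17 genes of the 2 lists that were 1.5-fold lower at 50 µM, 13 had ACGTG or its complement in a promoter. So did 27 of the 39 genes of the 2 lists with an entry, whatever their ratio, and 21.8% of all genes.

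**Figure D3:**
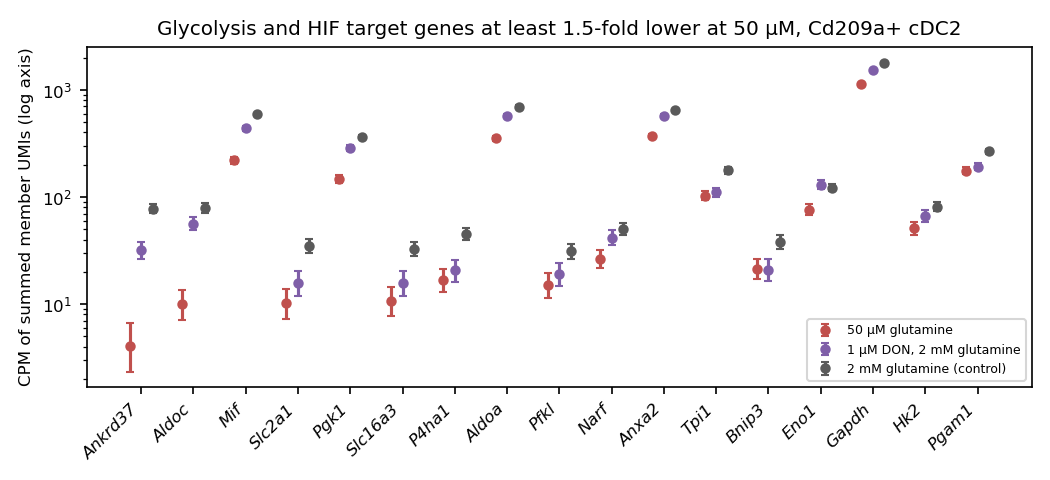
CPM on a log axis of the glycolysis and HIF target genes that were at least 1.5-fold lower at 50 µM than in control, from the lowest ratio at the left. Points are single libraries (50 µM, DON and control from left to right within a gene) and bars 95% Poisson intervals; Ankrd37 is at 4.09 CPM at 50 µM, 31.9 with DON and 77.7 in control.

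Several of these ratios were close to those of the Cd209a-negative cells. There Ankrd37 had ratios of -3.17 at 50 µM and -1.20 with DON, Aldoc -2.38 and -0.62, and Pgk1 -1.35 and -0.48. The glycolysis list median was -0.56 and -0.33 in that set, where 7 of the 17 genes were lower at 50 µM and 3 with DON. The HIF target medians there were -0.37 and -0.41, against -0.25 and -0.24 in members. Of the 14 HIF targets, 6 were lower at 50 µM and 3 with DON, the same counts as in members. With 1 library per medium, a difference in response between the 2 sets could not be tested.

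MHC class II genes, the means by which cDC2 present antigen, were lower at 50 µM and slightly lower with DON. The 14 genes of the list summed to 20988 CPM at 50 µM, 28551 with DON and 35955 in control. Of the 13 that passed the floor of 20 CPM, 10 were at least 1.5-fold lower at 50 µM and 2 with DON, with medians of -0.78 and -0.30. The chains H2-Aa and H2-Ab1 of the I-A molecule had 3900 CPM at 50 µM (3839 to 3963), 5280 with DON (5205 to 5355) and 6496 in control (6426 to 6567) for H2-Aa. H2-Ab1 had 2890, 3958 and 5232 CPM. H2-Eb1, the beta chain of I-E, was at 2291, 3064 and 4250 CPM. Cd74, the invariant chain that guides class II to the endosome, was at 9428 CPM at 50 µM (9332 to 9525), 12654 with DON (12539 to 12771) and 16159 in control (16047 to 16270). All 4 followed the same order of libraries.

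The peptide-loading genes H2-DMb2 and H2-Ob had the lowest ratios of the list. H2-DMb2, a chain of the DM exchange factor (ENSMUSG00000037548, chromosome 17, 34143307 to 34151555), had 46.0 CPM at 50 µM (39.5 to 53.2), 81.9 with DON (72.9 to 91.7) and 149 in control (138 to 160), with ratios of -1.59 and -0.82. H2-Ob, a chain of the DO inhibitor of DM, had 28.3, 49.7 and 79.2 CPM (-1.34 and -0.62). H2-DMb2 and H2-Ob were the 2 genes past 1.5-fold with DON. Ifi30, a thiol reductase that opens disulfide bonds of antigens, differed at 50 µM alone, with 194 CPM at 50 µM (181 to 208), 411 with DON (390 to 432) and 408 in control (390 to 426). H2-DMb1 likewise had 415, 733 and 756 CPM.

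Parts of the pathway stayed near control. Ciita, the master activator of class II genes, and Ctss, the protease that trims the invariant chain, were singled out after their values were seen. Ciita had 255 CPM at 50 µM (240 to 272), 239 with DON (223 to 255) and 270 in control (256 to 285), with overlapping intervals at 50 µM and in control. Ctss had 623, 808 and 725 CPM, so that its DON level was above control. The 14 measured MHC class I genes had medians of 0.00 at 50 µM and 0.01 with DON, with 0 genes past 1.5-fold in either.

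The class II levels depended on which members were counted. Members with a Mki67 or Top2a UMI had a summed class II level of 13480 CPM at 50 µM, 22253 with DON and 28559 in control. Those without had 29928 CPM at 50 µM, 32694 with DON and 39387 in control. In the members without such a UMI, 1.91% of all genes were at least 1.5-fold lower and 4.75% higher at 50 µM, and 0.555% lower and 1.05% higher with DON. There 3 of 13 class II genes were at least 1.5-fold lower at 50 µM, with a median of -0.43, and 2 of 13 with DON, with a median of -0.23. The glycolysis list was nearly the same with or without those cells, with 9 of 17 genes lower and a median of -0.62 at 50 µM in members without. The class II level was also higher in members with more Cd209a UMIs. At 50 µM it was 14959 CPM with 1 Cd209a UMI, 21029 with 2 and 28847 with 3 or more, with DON 23819, 27750 and 35195 CPM, and in control 30059, 37267 and 39892 CPM. Among barcodes just outside, with a Cd209a UMI but none of the 4 other genes, it was 10263, 13511 and 18786 CPM.

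**Figure D4:**
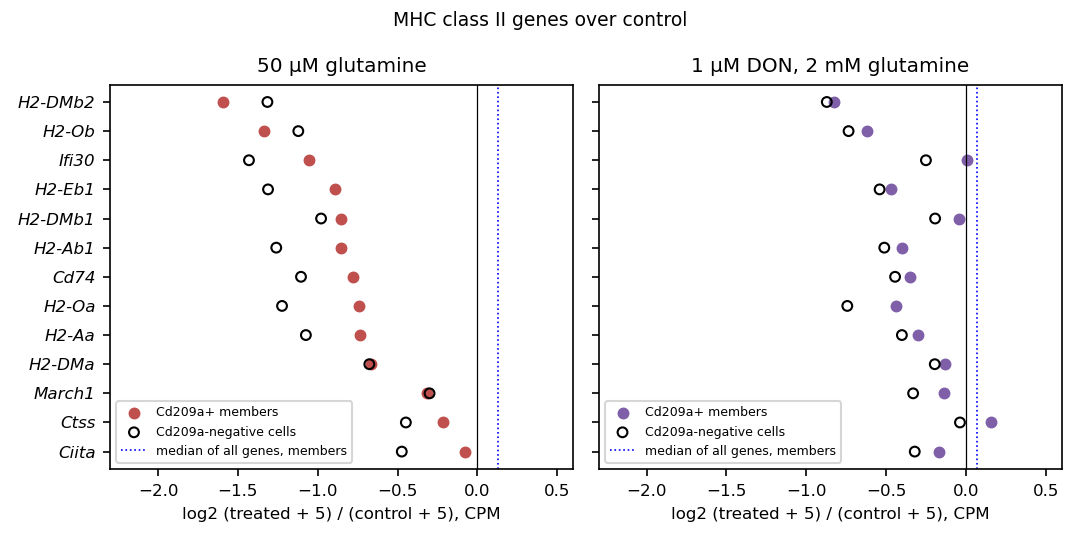
Log2 ratio over control of the 13 measured MHC class II genes at 50 µM glutamine (left) and with DON (right). Filled points are the Cd209a+ members, open points the Cd209a-negative cells and the dotted line the median of all genes in members; 10 of the 13 filled points at 50 µM are at least 1.5-fold lower, and Ciita lies near 0.

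In the Cd209a-negative cells the class II list had medians of -1.11 at 50 µM and -0.40 with DON. Its summed level there was 12158 CPM at 50 µM, 19288 with DON and 25898 in control, below that of the members in each library.

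Cell cycle genes were higher at 50 µM, and few passed 1.5-fold with DON. Of 25 S phase genes measured at 50 µM, 15 were at least 1.5-fold higher and 0 lower (median 0.66), and of 31 G2 and M phase genes 22 were higher and 0 lower (median 0.67). With DON the counts were 3 of 22 and 2 of 28, with medians of 0.44 and 0.33. The 50 µM and DON counts cover partly different genes, since a gene was measured when either compared library reached 20 CPM. Ckap2l, at 33.5, 19.2 and 14.6 CPM, passed that floor through the 50 µM library alone. Of all genes, 6.77% were higher at 50 µM and 0.702% with DON. These values cover all members, and the share with a Mki67 or Top2a UMI differed among the libraries. In members with such a UMI, G2 and M phase genes summed to 8046 CPM at 50 µM, 8416 with DON and 8044 in control. In the rest they summed to 486, 513 and 418 CPM. The S phase sums were 2213, 2126 and 1782 CPM with such a UMI and 406, 515 and 417 CPM without. The split itself uses cell cycle genes. Top2a, the topoisomerase that untangles sister chromatids, had 455 CPM at 50 µM (434 to 477), 290 with DON (273 to 308) and 233 in control (219 to 246). Anln, a scaffold of the cleavage furrow, had 36.3, 24.7 and 13.6 CPM, the largest G2 and M phase ratio at 50 µM (1.15). Pclaf, which binds the replication clamp, had 273, 235 and 140 CPM, and the replicative helicase subunit Mcm5 58.7, 51.9 and 31.5 CPM, and these 2 were among the 10 highest genes with DON.

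The summed ATF4 targets were higher at 50 µM in members with a Mki67 or Top2a UMI, at 1223 CPM against 643 in control. In members without such a UMI the sum was 535 CPM at 50 µM against 533 in control. Asns, which makes asparagine with the nitrogen of glutamine (chromosome 6, 7675169 to 7693254), had 35.8 CPM at 50 µM (30.1 to 42.2), 2.47 with DON (1.13 to 4.69) and 3.61 in control (2.14 to 5.70), a ratio of 2.24 at 50 µM. Only the 50 µM library stood apart. Phgdh, the first enzyme of serine synthesis, had 67.2 CPM at 50 µM (59.3 to 75.8), 18.4 with DON (14.3 to 23.4) and 11.2 in control (8.48 to 14.6), and Shmt2, a mitochondrial serine to glycine enzyme, 33.5, 9.62 and 9.22 CPM. Of 17 measured ATF4 targets, 6 were higher and 1 lower at 50 µM, with a median of 0.53. With DON 0 of 7 passed in either direction (median -0.13). The counts cover different genes, since a gene was measured when either compared library reached 20 CPM. Asns and Phgdh passed that floor through the 50 µM library alone and are absent from the DON count. The 50 µM count and median thus favour genes that are high in that library. Without the members that held a Mki67 or Top2a UMI, the 50 µM median was -0.06 with 0 of 9 higher. There Asns and Phgdh were below the floor and so not counted. In members with such a UMI, Asns was at 56.9 CPM at 50 µM, 4.15 with DON and 5.69 in control. In those without it was at 10.6, 1.37 and 2.64 CPM, still a ratio of 1.03 at 50 µM. Phgdh was at 118, 42.2 and 27.2 CPM with and at 6.15, 2.73 and 3.81 CPM without. Glul, which makes glutamine, was level at 20.7, 26.4 and 21.0 CPM.

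**Figure D5:**
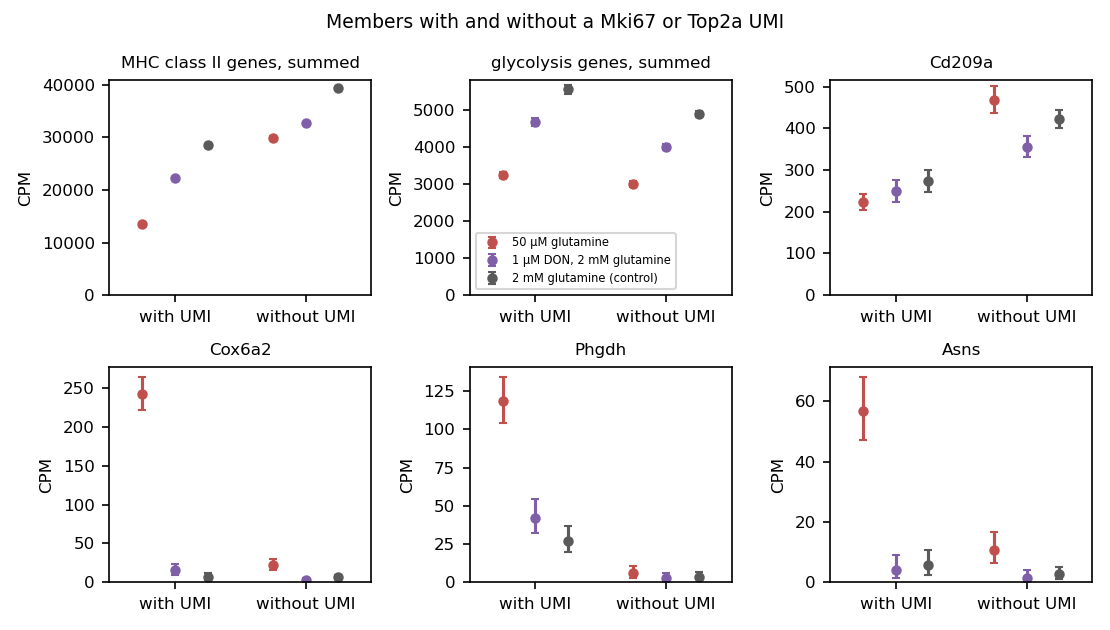
CPM in members with and without a UMI of Mki67 or Top2a, for the summed MHC class II and glycolysis lists and for Cd209a, Cox6a2, Phgdh and Asns. Points are single libraries (50 µM, DON and control from left to right) and bars 95% Poisson intervals; Cox6a2, Phgdh and Asns are high mainly in the 50 µM members with such a UMI, while the glycolysis sum is lowest at 50 µM in both sets.

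The highest ratio at 50 µM among genes with at least 50 CPM was that of Cox6a2, a subunit isoform of cytochrome c oxidase (chromosome 7, 128205435 to 128206387). It had 141 CPM at 50 µM (130 to 153), 7.97 with DON (5.34 to 11.4) and 6.81 in control (4.72 to 9.52), with a ratio of 3.63. The gene is also on the pDC list. It was found in 88 members at 50 µM, and its ratio was 1.19 without members that held a Mki67 or Top2a UMI and 0.42 with the rule applied after thinning. Its levels in all other barcodes were 583, 231 and 196 CPM. Sox4 and Cdk6, both high in progenitors, had 69.7, 14.3 and 8.42 CPM and 105, 34.3 and 17.4 CPM. Their ratios of 2.48 and 2.30 were 0.19 and 1.16 with the rule applied after thinning.

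The granule genes Mpo, Slpi, Ctsg, Prss34 and Prtn3 and the chitinase-like Chil3 were the other high genes at 50 µM, and several rested on few cells. A single member held 88.6% of the Prss34 UMIs at 50 µM, 53.5% of those of Mpo and 51.6% of those of Chil3. Ctsg was spread wider, with 87.8 CPM at 50 µM in 41 cells (78.8 to 97.6), 18.1 with DON (14.0 to 23.1) and 8.42 in control (6.07 to 11.4). Over 0.5% of UMIs came from granule genes in 9 members at 50 µM, 3 with DON and 7 in control. Without those members the ratio of Mpo was 1.80, that of Ctsg 2.40, that of Prss34 0.00 and that of Chil3 -0.13.

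Lyz2 and Tnfaip2 were higher in both treatments and in many cells. Lyz2, the lysozyme of myeloid cells, had 2270 CPM at 50 µM (2224 to 2318), 1371 with DON (1333 to 1409) and 808 in control (783 to 833). Tnfaip2, a TNF-induced gene of membrane protrusions (chromosome 12, 111442469 to 111455018), had 221 CPM at 50 µM (206 to 236), 134 with DON (122 to 146) and 63.5 in control (56.7 to 70.9), with ratios of 1.72 and 1.02. The monocyte surface gene Ly6c2 had 396, 251 and 160 CPM. The order of the libraries was the same for these 3 genes. In members without 2 or more monocyte genes the Tnfaip2 ratios were 1.66 and 0.84, and the Lyz2 ratio at 50 µM was 1.47. Ly6c2 is itself 1 of those 6 monocyte genes. In members with 3 or more Cd209a UMIs the Lyz2 ratios were 1.86 and 0.86, and those of Ly6c2 1.54 and 0.12. Lyz2 had ratios of -0.55 and -0.02 in barcodes with Cd209a at 0 and 1 of the 4 other genes. The neutrophil markers of that set summed to 10486 CPM at 50 µM, 26228 with DON and 23022 in control. In Cd209a-negative cells Tnfaip2 had ratios of 0.97 and 0.41.

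The other low genes at 50 µM were Plbd1, Jund, Eva1b and Spint1. Plbd1, a phospholipase B-like gene, had 40.9 CPM at 50 µM (34.8 to 47.7), 90.4 with DON (80.9 to 101) and 118 in control (109 to 128). Jund, an AP-1 subunit, had 111, 204 and 283 CPM. Spint1, a serine protease inhibitor, had 56.9, 101 and 141 CPM, and Eva1b 17.9, 44.2 and 51.3 CPM. All 4 had the DON level between those of 50 µM and control.

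With DON the 4 genes at least 2-fold higher were Lpl, Ctsd, Tnfaip2 and Gpnmb, the last named after its values were seen. Gpnmb, a glycoprotein of lysosome-rich macrophages, had 4.85 CPM at 50 µM, 23.9 with DON and 8.02 in control. Lpl, the lipase that frees fatty acids from lipoproteins, had 14.6 CPM at 50 µM, 82.2 with DON (73.1 to 92.0) and 13.02 in control (10.1 to 16.6). Its UMIs with DON lay in 25 of the 400 members (22 and 21 members at 50 µM and in control), and its ratio of 2.27 was 0.92 without members that had 2 or more monocyte genes. Cathepsin D (Ctsd) had 70.0, 91.8 and 38.9 CPM and cathepsin B (Ctsb) 219, 309 and 171 CPM. The Ctsd ratio of 1.14 and the Ctsb ratio of 0.84 were 0.20 and 0.39 without those members. Fabp5, a fatty acid carrier, had 48.0, 87.9 and 46.3 CPM, so that it too was high with DON alone. Alox5, the 5-lipoxygenase of leukotriene synthesis, had 34.0, 64.6 and 39.1 CPM. The 16 lysosomal protease genes had medians of 0.15 at 50 µM and 0.22 with DON, with 1 and 2 genes past 1.5-fold higher.

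Of the 7 genes at least 2-fold lower with DON, Ankrd37 is given above, and several of the others owed their control level to few members. The immunoglobulin light chain gene Iglc1 had 1.02 CPM at 50 µM, 0.55 with DON and 271 in control, with 99.6% of the control UMIs in 1 member. Ctla2a had 2.04, 1.65 and 33.5 CPM and the neutrophil granule gene Camp 32.7, 4.95 and 31.7 CPM, and 1 member held 51.5% and 75.9% of their control UMIs. Cd24a, a surface glycoprotein gene, had 10.7, 6.32 and 21.04 CPM, with 44.8% of the control UMIs in 1 member. The chemokine Ccl5 had 8.68, 9.07 and 33.3 CPM. In control 1 member held 29.5% of its UMIs, but it was detected in 102 members. Hepacam2, an immunoglobulin-superfamily gene, did not rest on a single member, since the top one held 2.63% of its control UMIs. It had 5.11 CPM at 50 µM, 7.14 with DON (4.67 to 10.5) and 22.8 in control (18.8 to 27.4), from 96 control members. Iglc1, Cd24a and Hepacam2 were named after their values were seen.

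Among genes with at least 50 CPM, beside Iglc1 and the glycolysis and class II genes above, the low ratios with DON were small. Apol7c had 54.4 CPM at 50 µM, 35.4 with DON (29.6 to 42.1) and 66.7 in control (59.8 to 74.3), a ratio of -0.83. The early response gene Ier3 had 53.9 CPM at 50 µM, 57.2 with DON and 91.4 in control, alike in both treated libraries. Jun had 57.7, 42.0 and 65.5 CPM and Ttc39b 27.1, 32.4 and 50.3 CPM. Ngp, a neutrophil granule gene, was also in this group at a ratio of -0.63, with 84.1% of its DON UMIs in 1 member, and its ratio was 0.63 without granule-marked members.

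In sterol synthesis few genes passed 1.5-fold. Fdps, which makes farnesyl diphosphate, had 116 CPM at 50 µM (105 to 127), 267 with DON (250 to 284) and 180 in control (169 to 192), and its 3 intervals are apart. The list medians were -0.30 over 16 genes at 50 µM and 0.22 over 19 genes with DON, with 1 gene at least 1.5-fold lower at 50 µM and 0 past 1.5-fold with DON. Without members that held a Mki67 or Top2a UMI, 4 of 19 sterol genes were higher with DON (median 0.30), beside 1.05% of all genes. At 50 µM 1 of 16 was lower there (median -0.21). Scd2, a fatty acid desaturase, had 74.3, 177 and 181 CPM and so was low at 50 µM alone. The NRF2 targets had a median of 0.51 at 50 µM, with 3 of 12 higher, and 0.13 with DON. Without members that held a Mki67 or Top2a UMI, 6 of 12 were higher at 50 µM (median 0.59), beside 4.75% of all genes. With DON 0 of 11 were higher there (median 0.11). Among the NRF2 targets, thioredoxin reductase Txnrd1 had 65.9, 38.5 and 28.7 CPM and glutathione reductase Gsr 37.0, 18.1 and 13.2 CPM.

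Most identity genes outside the rule were within 1.5-fold of control. Of 20 cDC2 genes, 4 were at least 1.5-fold higher and 1 lower at 50 µM (median 0.04). With DON 1 was higher and 1 lower (median -0.03). Of all genes, 6.77% were higher and 2.3% lower at 50 µM, and 0.702% higher and 0.522% lower with DON. Irf4, given above, had ratios of -0.36 and -0.18, which were 0.08 and -0.08 without members that held a Mki67 or Top2a UMI. Cx3cr1, the fractalkine receptor, had 39.8 CPM at 50 µM (33.8 to 46.6), 26.4 with DON (21.4 to 32.2) and 15.03 in control (11.8 to 18.8). Without members that held a Mki67 or Top2a UMI it had 36.4, 14.1 and 14.96 CPM, so that its DON ratio of 0.65 became -0.06. Csf1r, the receptor of the macrophage growth factor CSF1, had 153, 113 and 92.8 CPM, and Zeb2, a repressor that favours the cDC2 fate, 236, 188 and 147 CPM. Cd7 was the gene lower at 50 µM, with 68.7, 124 and 119 CPM, but its ratio of -0.75 was 0.12 with the rule applied after thinning. With DON the cytokine Ltb was the lower gene, at 42.1 CPM at 50 µM, 24.7 with DON (19.9 to 30.4) and 40.7 in control (35.3 to 46.7). Klf4, a factor needed by a part of cDC2, had 84.5, 144 and 127 CPM, and S100a4 2108, 2658 and 2460 CPM. Mgl2, a lectin gene close to Clec10a, had 43.7, 22.8 and 32.5 CPM.

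Genes shared by all conventional dendritic cells had medians of -0.25 at 50 µM and 0.01 with DON over 12 genes. Of these, 1 was higher and 1 lower at 50 µM and 1 lower with DON, beside the shares of all genes given above. The higher one at 50 µM was Irf8, given above, with a ratio of 0.79. The cDC factor Zbtb46 had 21.7, 32.1 and 34.3 CPM. Flt3, the receptor of the growth factor in the cultures, had 98.8 CPM at 50 µM (89.2 to 109), 78.3 with DON (69.5 to 88.0) and 66.5 in control (59.6 to 74.1). The HLH factor Id2 had 138, 145 and 213 CPM. Of 10 further C-type lectin genes, Clec4n (dectin-2) had 120, 58.5 and 65.1 CPM and Clec12a 62.8, 32.1 and 35.1 CPM, both high at 50 µM alone, and Klrd1 was lower there with 130, 179 and 230 CPM. Without members that held a Mki67 or Top2a UMI, the Clec12a ratio was -0.03. Cd209d, a neighbour of Cd209a in sequence, had 34.7, 32.7 and 22.04 CPM, and reads of such close relatives can be hard to tell apart.

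The median of 16 NF-kB genes was 0.34 at 50 µM, with 4 higher and 1 lower, and 0.09 over 15 genes with DON. The chemokine and pattern receptors had 3 of 11 higher and 1 lower at 50 µM (median 0.37), and the lower one was the interleukin 1 decoy receptor Il1r2 with 102, 156 and 182 CPM. These shares of higher genes, like that of the NRF2 targets, stand beside 6.77% of all genes. Maturation and costimulation genes had medians of 0.01 and 0.05 over 6 genes, although cells with Ccr7 or Fscn1 UMIs had been removed by the rule. The 19 type I interferon genes had medians of -0.27 and -0.15, and that at 50 µM was 0.027 without members that held a Mki67 or Top2a UMI. The 13 protein genes of the mitochondrial genome had medians of 0.22 and 0.16, the 16 MYC and ribosome assembly genes of 0.23 and 0.07, and the 9 immediate early genes of -0.25 and -0.20. Glutamine and glutamate enzymes had a median of 0.24 at 50 µM, with 3 of 15 higher, beside 6.77% of all genes. With DON the median was 0.00 over 12 genes. The 15 include Asns, which reached the floor through the 50 µM library alone, so the 2 medians cover different genes. The median of p53 targets was 0.38 over 7 genes at 50 µM and -0.01 over 6 with DON, that of fatty acid synthesis -0.04 over 9 and 0.16 over 10, and that of prostaglandin and leukotriene genes -0.18 and 0.02 over 5 genes in both.

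Compared with the Cd209a-negative cells, members had higher class II RNA in every library. H2-Ab1 was at 2890 CPM in members and 1462 CPM in Cd209a-negative cells at 50 µM, 3958 and 2460 CPM with DON, and 5232 and 3509 CPM in control. The prostaglandin-degrading enzyme Hpgd was at 213 and 120 CPM, 237 and 167 CPM, and 221 and 172 CPM in the same order, and it hardly differed between media in members. Wfdc17 had 344 and 178 CPM, 478 and 268 CPM, and 484 and 325 CPM. Lower in members were the macrophage elastase Mmp12 (4.60 and 70.9 CPM at 50 µM, 4.12 and 169 CPM with DON, 6.01 and 217 CPM in control) and Lpl (14.6 and 373 CPM, 82.2 and 568 CPM, and 13.02 and 409 CPM). The ion channel genes Tmem176a and Tmem176b stood within 1.5-fold between the sets in each library, with Tmem176b at 412 and 426 CPM at 50 µM, 353 and 363 CPM with DON and 401 and 379 CPM in control. Both sets were defined by measured genes of the same barcodes, so these values describe the choice of cells.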

How the data were processed

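The authors deposited 1 matrix of unnormalised UMI counts per library, 3 in all, holding the barcodes they had called as cells. Cell Ranger 6.0.0 made them per the file headers, but version 3.1.0 and the mm10 genome are named in the submitters' processing notes. The version is therefore not settled, and the alignment settings and gene annotation are not given in the sources used here. Gene positions came from GENCODE vM21 (GRCm38) by gene identifier.

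Barcodes with at least 1000 UMIs, 500 genes and at most 10% mitochondrial UMIs were kept; members were taken by the rule given above. UMIs were summed over members per library and scaled to CPM with exact Poisson intervals. Shares have exact Clopper-Pearson intervals. Ratios are log2 with a pseudocount of 5 CPM, and genes were counted from a floor of 20 CPM in either library, without the 15 rule genes. With 1 library per group no test was possible, and intervals leave out variation between cultures. The summing and ratio step was tested on simulated data. Doublets were marked per library by a Scrublet-type score with a threshold at the minimum between simulated modes, and removed only as an alternative. The caller marked 4.77% of barcodes at 50 µM, 2.85% with DON and 8.53% in control.

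Named genes are, per treatment, the 10 highest and 10 lowest ratios above a level of 50 CPM (leaving out mitochondrial, ribosomal, haemoglobin, immunoglobulin and predicted genes), the 4 list members furthest from control in each list, a chosen set of identity genes, and the genes furthest apart from Cd209a-negative cells. Not every gene that this rule gives is printed. The members, gene lists and tests were chosen with earlier results of these data known. Of the 32 lists, 3 genes were not found by symbol. Results were recomputed under 13 other settings, and under 2 more chosen after the data were seen. Leaving granule-marked cells out of the Cd209a-negative set was also chosen after the data were seen. Values came from Python 3.11.15 with numpy 2.4.6, pandas 2.3.3 and scipy 1.17.1.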

Additional observations from a re-analysis of the deposited data

Results flagged for a closer look

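The neutrophil granule gene Ngp met the rule for opposite directions in 2 sets of cells. With DON its ratio over control was -0.63 in the members and 0.64 in the Cd209a-negative cells. The difference was not tested, since each medium has 1 library. In the members 84.1% of the DON UMIs of Ngp lay in 1 cell, and the Cd209a-negative cells had been freed of granule-rich barcodes. With granule-marked members left out in the same way, the ratio in the members was 0.63, the same direction as in the Cd209a-negative cells.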

How the results depend on the processing

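With 1 library in each group, replicates could not be left out, and depth limits the genes that can be counted to those near or above the floor of 20 CPM. No paired analysis was possible because the groups have no replicates and share no replicate numbers. The share of members (50 µM, DON and control in that order) was 2.64%, 2.40% and 3.75% with at least 2 Cd209a UMIs, 3.23%, 3.196% and 4.30% with at least 2 of the 4 other genes, and 2.12%, 1.61% and 2.36% with the rule applied after thinning. It was 5.76%, 5.18% and 6.41% at no more than 5% mitochondrial UMIs, 2.86%, 3.13% and 4.51% without members holding a Mki67 or Top2a UMI, and 4.03%, 3.76% and 5.08% without monocyte-marked members. Control had the highest share under each of these, and the order of the 2 treated shares turned when members with a Mki67 or Top2a UMI were left out.

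At 50 µM the 77 genes at least 2-fold higher became 129 with a pseudocount of 1 CPM, 32 with a floor of 50 CPM, 130 with the thinned rule, 33 without members holding a Mki67 or Top2a UMI and 47 with equal weight per cell. The 38 lower genes became 18 with a floor of 50 CPM. With DON the 4 higher genes became 8 with a pseudocount of 1 CPM, 10 with a floor of 5 CPM, 8 with at least 2 Cd209a UMIs, 21 with the thinned rule, 12 with equal weight and 1 without monocyte-marked members. The 7 lower genes became 2 with a floor of 50 CPM, 14 with a floor of 5 CPM, 13 with at least 2 of the 4 genes, 13 with the thinned rule, 4 without marked doublets and 4 without the top cell of each gene. Fewer or more genes tested account for the counts at other floors, and for the rest the cause was not tested.

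The MHC class II median of -0.78 at 50 µM was -0.62 with at least 2 Cd209a UMIs, -0.65 with at least 2 of the 4 genes, -0.48 with the thinned rule, -0.43 without members holding a Mki67 or Top2a UMI and -0.56 with equal weight. The glycolysis and HIF medians kept their sign under each alternative. Medians that changed sign at 50 µM were those of type I interferon genes (0.047 with the thinned rule, 0.027 without members holding a Mki67 or Top2a UMI), of MYC and ribosome assembly genes (-0.16 and -0.063 in that order) and of ATF4 targets (-0.061 without such members).

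Single genes changed sign as well. At 50 µM, Prss34 was at -1.29 with at least 2 Cd209a UMIs, -1.28 with at least 2 of the 4 genes and -1.74 with the thinned rule, and Cd7 at 0.12 with the thinned rule. Chil3 was at -0.98 and Clec12a at -0.033 without members holding a Mki67 or Top2a UMI, and Chil3 at -0.13 without granule-marked members. With DON, Ngp was at 1.60 with at least 2 Cd209a UMIs, 1.81 with the thinned rule, 0.65 without marked doublets, 0.32 without members holding a Mki67 or Top2a UMI and 0.63 without granule-marked members. Cx3cr1 was at -0.062 without members holding a Mki67 or Top2a UMI, and Chil3 at -0.44 without monocyte-marked members.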
